A study of Mus musculus with 6 samples.

Results

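The 5 genes of the Ikaros family, Ikzf1 (Ikaros), Ikzf2 (Helios), Ikzf3 (Aiolos), Ikzf4 (Eos) and Ikzf5 (Pegasus), were examined for open chromatin in regulatory T cells (Tregs) with and without the transcription factor CREB. An accessible region was assigned to a gene when it overlapped the gene body or the 10 kb on either side. By this rule 165 of the 104845 regions found in either group belonged to the family. Ikzf2 had 79 of them, Ikzf1 had 47, Ikzf3 had 30, Ikzf4 had 8 and Ikzf5 had 1.

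Chromatin was profiled by ATAC-seq, in which a transposase cuts DNA that is not covered by nucleosomes, in splenic Tregs of C57BL/6 mice aged 6 to 12 weeks. The control mice (CREBfl/fl) carried the floxed Creb1 alleles without a Cre. In Foxp3creCREBfl/fl mice the Cre was expressed from the Foxp3 locus through an IRES, so that deletion was directed to cells that had expressed Foxp3. The sample titles name this group as a Foxp3 knockout, while the design text gives the cross of Foxp3cre with CREB-flox mice, which is followed here. Each group had 3 libraries in the labels, whose protocol speaks of sequencing in duplicates, but the processed data used here are 1 peak list per group, so that no difference could be tested across mice. The CREBfl/fl list held 100771 regions and the Foxp3creCREBfl/fl list 94499. All 7 Treg marker genes examined, Foxp3, Il2ra, Ctla4, Tnfrsf18, Nrp1, Cd4 and Cd3e, had a region within 1 kb of a start site in both lists. So did 3 of 5 B cell, 3 of 5 myeloid, 3 of 5 CD8 and NK cell and 4 of 5 erythroid marker genes. The cells were profiled in bulk, so fewer cells with an open site and less opening per cell cannot be told apart. The exon of Creb1 that is removed is not named in the sources used here, and the peak lists therefore hold no check of the deletion.

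Ikaros family proteins bind DNA through zinc fingers near their N-terminus and pair with one another through further zinc fingers at the C-terminus. They act largely by bringing chromatin remodelling and histone deacetylase complexes to their target genes. Ikaros is required for the development of lymphocytes, Helios is carried by most Tregs that arise in the thymus and helps to keep their identity stable, and Eos is a partner of Foxp3 in gene silencing. Aiolos is induced in activated T cells, and Pegasus is the most distant member. CREB binds the cAMP response element (CRE), the palindrome TGACGTCA, and also its half-site TGACG.

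The values below rest on the pileup, the number of sequenced tags piled up over the summit of a region, recovered from the fold and the p value that the lists give for each peak. Pileups were divided by the background expected over the whole genome in the same list, 8.44 tags for CREBfl/fl and 5.09 for Foxp3creCREBfl/fl. The log2 ratio of Foxp3creCREBfl/fl to CREBfl/fl was then set relative to the median of the 82006 shared regions, which was 0.15 before that step. Each ratio has an exact binomial 95% interval that covers counting error only and no difference between mice. Regions are called lower or higher when the whole interval lies below or above 0. Among the start-site regions of the marker genes, those of Ctla4 and Cd3e were lower, as were those of the erythroid genes Gata1 (-0.63, -0.98 to -0.29) and Tal1 (-0.63, -1.10 to -0.17). Higher were those of the B cell gene Ms4a1 (1.13, 0.37 to 1.91, with 26 and 38 tags) and the myeloid gene Spi1 (0.25, 0.01 to 0.48). Lower were thus 2 of 7 Treg and 2 of 4 erythroid start-site regions measured, and higher 1 of 3 B cell and 1 of 3 myeloid ones. The others, with all 3 of the CD8 and NK cell genes, had intervals that span 0. Among all shared regions of the 7 Treg marker genes, 17 of 107 were lower and 5 higher, with a median ratio of -0.11. Lower were 1 of 26 regions of the B cell, 1 of 22 of the myeloid, 0 of 16 of the CD8 and NK cell and 2 of 22 of the erythroid genes. Higher were 3, 1, 0 and 0 of them. Of all shared regions 7.88% were lower and 5.47% higher. The part of these marker regions in the family's values was not tested.

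Of the 15 family regions that were lower, 5 held a CREB half-site within 150 bp of the summit. Of the 6466 lower regions of the whole series, 2041 did, so this is not a trait of the family. The 5 sequences are shown first because they carry the site that CREB recognises. The letters are from the GRCm38 assembly, on the strand of the gene, with the half-site in capitals (TGACG, or CGTCA where it lies on the other strand).
Ikzf4 start site, chr10:128645863-128645923: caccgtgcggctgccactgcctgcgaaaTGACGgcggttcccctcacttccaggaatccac
Ikzf4 exon 3, chr10:128642944-128643004: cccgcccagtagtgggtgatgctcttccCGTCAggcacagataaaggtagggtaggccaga
Ikzf3 intron 3, chr11:98509437-98509497: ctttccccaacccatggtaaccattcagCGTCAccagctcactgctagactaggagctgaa
Ikzf1 intron 3, chr11:11720447-11720507: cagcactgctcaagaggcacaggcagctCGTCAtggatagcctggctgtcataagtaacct
Ikzf1 intron 3, chr11:11726329-11726389: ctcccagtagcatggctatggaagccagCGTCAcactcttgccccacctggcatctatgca
The full CRE occurred near the summit of 1 of the 165 regions (0.606%), against 0.916% of all regions. It was a CREBfl/fl-only region in intron 1 of Ikzf3, chr11:98533050-98533141, and the site itself lay just beyond the edge of the called region.
Ikzf3 intron 1, full CRE in capitals, chr11:98533150-98533189: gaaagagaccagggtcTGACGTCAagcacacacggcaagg

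Most family regions were present in both groups. Of the 165, 130 were shared, 25 were found in the CREBfl/fl list alone and 10 in the Foxp3creCREBfl/fl list alone. The CREBfl/fl-only regions were 15.9% of the 157 CREBfl/fl regions of the family (Wilson 95% interval 11.02 to 22.5), against 16.4% of all CREBfl/fl regions. The Foxp3creCREBfl/fl-only regions were 6.62% of 151 (3.64 to 11.8), against 6.61% of all. Both shares of the family were thus at the level of all regions.

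Among the 130 shared regions, 15 were lower in Foxp3creCREBfl/fl (11.5%, 7.12 to 18.2), against 7.88% of all shared regions. Higher were 3 (2.31%, 0.788 to 6.57), against 5.47% of all. Both family intervals include the share of all regions. The Wilson intervals throughout treat each region as independent, although the regions lie in only 5 genes. They describe the shares and are not a test. None of the 130 passed 2-fold and 5 counting SDs, a bound that 0.201% of all shared regions passed. The median log2 ratio of the family was 0.01, with quartiles of -0.19 and 0.16, against quartiles of -0.17 and 0.16 over all shared regions. Without setting ratios relative to the median of all regions, 8 family regions were lower and 23 higher, so the split between the directions depends on this centring. Leaving it out moves every region of the series upward, and the shares of all regions were not counted in that setting.

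Most family regions were distal, through Ikzf1, Ikzf2 and Ikzf3. Within 1 kb of an annotated start site lay 17.0% of the family regions, against 27.1% of all regions. The background that the peak caller set for each peak, from a wider stretch around it, had a median of 3.95 times the genome background in the CREBfl/fl regions of the family, against 1.47 times over all CREBfl/fl regions. In the Foxp3creCREBfl/fl list it was 4.37 times, against 1.58. The summits of shared family regions lay a median of 6.5 bp apart between the lists.

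**Figure D1:**
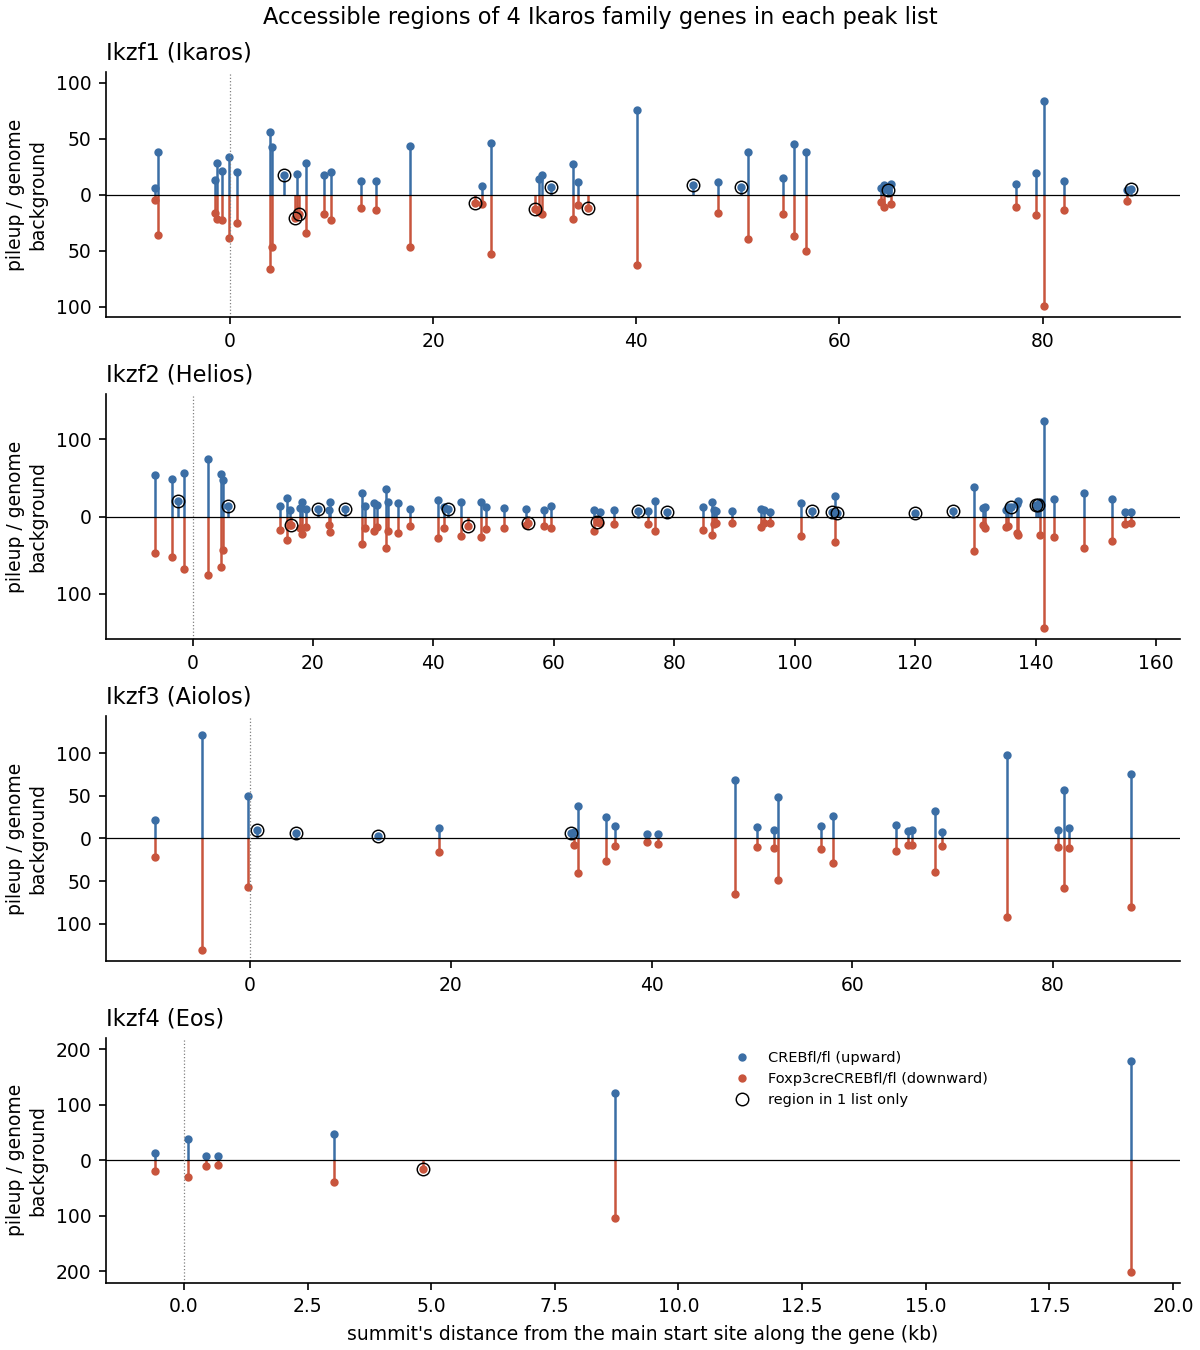
Pileup of each region as a multiple of the genome background of its list (vertical axis, linear, CREBfl/fl upward and Foxp3creCREBfl/fl downward) against the distance of its summit from the start of the longest protein-coding transcript, in kb along the gene, for Ikzf1, Ikzf2, Ikzf3 and Ikzf4. Open circles are regions of 1 list only, whose pileup was at most 176 tags, and the tallest regions of each gene stand in both lists.

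Ikzf2 encodes Helios and spans chr1:69531214-69687245 on the minus strand (ENSMUSG00000025997.13). Its 75 CREBfl/fl regions placed it at rank 11 of 21728 protein-coding genes by number of regions, and its 69 Foxp3creCREBfl/fl regions at rank 14. The gene is 156 kb long, and per 10 kb of its window it had 4.26 CREBfl/fl regions, close to the 4.08 of Ikzf1. By the longest protein-coding transcript, Ikzf2-201, 69 of the 79 regions lay in introns, 4 in exons, 1 over a start site, 3 upstream and 2 downstream.

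The tallest region of Ikzf2 lay in intron 6 at chr1:69544160-69544748, with a pileup of 1049 in CREBfl/fl and 735 in Foxp3creCREBfl/fl, and its ratio of 0.07 (-0.07 to 0.20) spanned 0. The next tallest, at exon 3 (chr1:69682978-69683419), had 627 and 383 (-0.13, -0.32 to 0.06). The region over the outermost start site, that of Ikzf2-202 at chr1:69686933-69688012, had 477 and 343 (0.10, -0.10 to 0.31). No region covered the start of Ikzf2-201 itself. Relative to all regions, these sites thus did not differ beyond counting error. Without the centring, the intervals of the tallest (0.08 to 0.36) and of the start-site region (0.05 to 0.46) lay above 0.

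The sequence around the tallest Helios site is given because that site is open in both groups. Capitals mark a match to the STAT word TTCNNNGAA, then one to the RUNX word TGTGGT.
Ikzf2 intron 6, chr1:69544336-69544486, minus strand: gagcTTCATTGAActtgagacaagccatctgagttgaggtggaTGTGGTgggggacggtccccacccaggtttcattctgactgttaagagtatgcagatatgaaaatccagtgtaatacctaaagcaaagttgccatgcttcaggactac

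Ikzf2 was the member with higher regions, 3 of its 60 shared regions (5%, 1.71 to 13.7), against 5.47% of all shared regions. This share was thus at the level of all regions. The highest ratio of the family was at chr1:69618879-69619215 in intron 3, where the pileup was 75 in CREBfl/fl and 93 in Foxp3creCREBfl/fl in spite of the lower depth of the latter list. Its log2 ratio was 0.89 (0.44 to 1.35). The others were in exon 8 at chr1:69533021-69533358, with 188 and 160 (0.35, 0.03 to 0.66), and in intron 3 at chr1:69584349-69584990, with 149 and 128 (0.36, 0.01 to 0.71). The intervals of the last 2 reached close to 0. None of these regions held a half-site near the summit. The stretch around the highest-ratio summit follows, with its single match among the words searched, the GATA word AGATAA, in capitals.
Ikzf2 intron 3, chr1:69619043-69619193, minus strand: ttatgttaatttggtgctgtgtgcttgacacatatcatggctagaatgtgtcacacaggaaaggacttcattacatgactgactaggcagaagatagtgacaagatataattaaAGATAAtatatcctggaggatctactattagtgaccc

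Lower were 2 of the 60 shared Ikzf2 regions (3.33%, 0.919 to 11.4), against 7.88% of all shared regions. The 2 lower regions both lay near the 5′ end of the gene. One was upstream of the gene at chr1:69692033-69692743, with 455 and 243 (-0.32, -0.55 to -0.10), and the other in intron 3 at chr1:69680247-69680829, with 396 and 219 (-0.27, -0.52 to -0.03). The 6 shared regions within 10 kb of the start of Ikzf2-201 had a median ratio of -0.09, and 2 of them were above 0. The 54 regions farther from it, the downstream ones included, had a median of 0.16, and 43 of them were above 0. Without the centring neither of the lower regions stayed lower, and Ikzf2 had 0 lower and 16 higher regions with a median of 0.28. Leaving out the centring adds 0.15 to the ratio of every shared region of the series. The share of all regions that are then higher was not counted. Over all 60 shared regions the median with centring was 0.13. For comparison, the medians of the 418 genes with at least 20 shared regions ranged from -0.21 to 0.14 between their 5th and 95th percentiles.

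The background of the peaks reads the signal on a broader scale. Its log2 ratio, relative to the median of 54213 shared regions with a background above the genome level, was above 0 at 60 of 60 shared Ikzf2 regions, from 0.06 to 0.33 with a median of 0.22. The upper quartile of all those regions was 0.07 and their 95th percentile 0.19. Neighbouring peaks share most of this background, and it contains the peaks themselves, so these are not 60 separate measurements. When each pileup was set against the background of its own peak, the median ratio of Ikzf2 changed to -0.05, with 5 lower regions and 1 higher. The shares of all regions on that scale were not counted.

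Ikzf2 lies 4.93 Mb from the floxed Creb1 gene on the same chromosome. Of the 69 shared regions between both genes, 13 were lower (18.8%), 7 were higher (10.1%) and 5 passed 2-fold and 5 counting SDs (7.25%). On the other chromosomes these shares were 7.80%, 5.34% and 0.175%, and on the whole of chromosome 1 they were 9.02%, 7.18% and 0.558%. The 69 regions between both genes had a median ratio of 0.05. The 203 other shared regions within 5 Mb of Ikzf2 also had a median of 0.05, against 0.13 for Ikzf2, and relative to them the median of Ikzf2 was 0.07 with 1 higher region. The median log2 ratio of the peak background was 0.025 between both genes and 0.03 over the 203 neighbours, against 0.22 for Ikzf2. In the window of Creb1 itself it was 0.19. The 10 shared regions there had a median pileup ratio of 0.23, with 0 lower and 1 higher (10%). The part of this position in the values was not tested.

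Single-list regions of the family had a median pileup of 64 in CREBfl/fl and 62 in Foxp3creCREBfl/fl, against 33 and 23 over all single-list regions. In Ikzf2, the tallest of the 15 CREBfl/fl-only regions, at chr1:69688065-69688183, had a pileup of 176. Those at chr1:69545659-69545763 and chr1:69545300-69545560, both next to the tallest region of the gene, had 130 and 124. The 4 Foxp3creCREBfl/fl-only regions, all in intron 3, had pileups of 64, 58, 39 and 34. The CREBfl/fl-only share was 20% of 75 (12.5 to 30.4) and the Foxp3creCREBfl/fl-only share 5.80% of 69 (2.28 to 14.0), and both intervals include the share of all regions.

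Ikzf4 encodes Eos and spans chr10:128630843-128645991 on the minus strand (ENSMUSG00000002578.17). It had 7 CREBfl/fl and 8 Foxp3creCREBfl/fl regions. The tallest region of its window, with 1512 and 1023, lay downstream at chr10:128626290-128627162, within 1 kb of a start site of Rps26, a ribosomal protein gene, and its ratio was 0.02 (-0.10 to 0.13). The other regions belonged to the Eos gene and the stretch just upstream.

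Lower in Foxp3creCREBfl/fl were 3 of the 7 shared Eos regions. The region over the start site of Ikzf4-201, chr10:128645669-128646004, gave 323 tags in CREBfl/fl and 156 in Foxp3creCREBfl/fl (-0.47, -0.75 to -0.19). At exon 3, chr10:128642687-128643076, the pileups were 396 and 200 (-0.40, -0.66 to -0.16). Exon 6, chr10:128636656-128637525, held the tallest Eos region proper, with 1019 and 529 (-0.37, -0.52 to -0.21). These sites differed beyond counting error, and each of the 3 intervals stayed below 0 without the centring. The share of 42.9% has an interval of 15.8 to 75.0 over 7 regions, all of 1 locus, against 7.88% of all shared regions.

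Around the Eos start site stood the half-site shown above and a pair of closely spaced STAT words, all in capitals here.
Ikzf4 start site, chr10:128645826-128645976, minus strand: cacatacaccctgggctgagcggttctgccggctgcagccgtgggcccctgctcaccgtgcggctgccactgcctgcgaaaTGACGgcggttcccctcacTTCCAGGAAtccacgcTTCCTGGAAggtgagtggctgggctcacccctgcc

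The smaller regions around the start site had intervals that span 0. Just upstream, chr10:128646510-128646683 had 116 and 97 (0.32, -0.08 to 0.72), and in intron 1 a region with 71 and 49 had a ratio of 0.05 (-0.51 to 0.59). The third small one, also in intron 1, had 68 and 41 (-0.15, -0.75 to 0.43). With so few tags these intervals are wide. A long non-coding gene, Gm26876, has a start site within 1 kb of this group of regions, so the signal is not that of Ikzf4 alone. Of the 8 Foxp3creCREBfl/fl regions of Ikzf4, 12.5% (2.24 to 47.1) were in that list alone, against 6.61% of all. The single region present in 1 list alone was Foxp3creCREBfl/fl-only, at chr10:128641094-128641177 in exon 4, with a pileup of 78. At the median ratio of all regions it would have had 116.7 tags in CREBfl/fl, where the lowest pileup called on a similar background was 57. The median ratio of Ikzf4 was -0.15, and 0.00 without the centring. Its 283 neighbouring shared regions within 5 Mb had a median of 0.02.

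**Figure D2:**
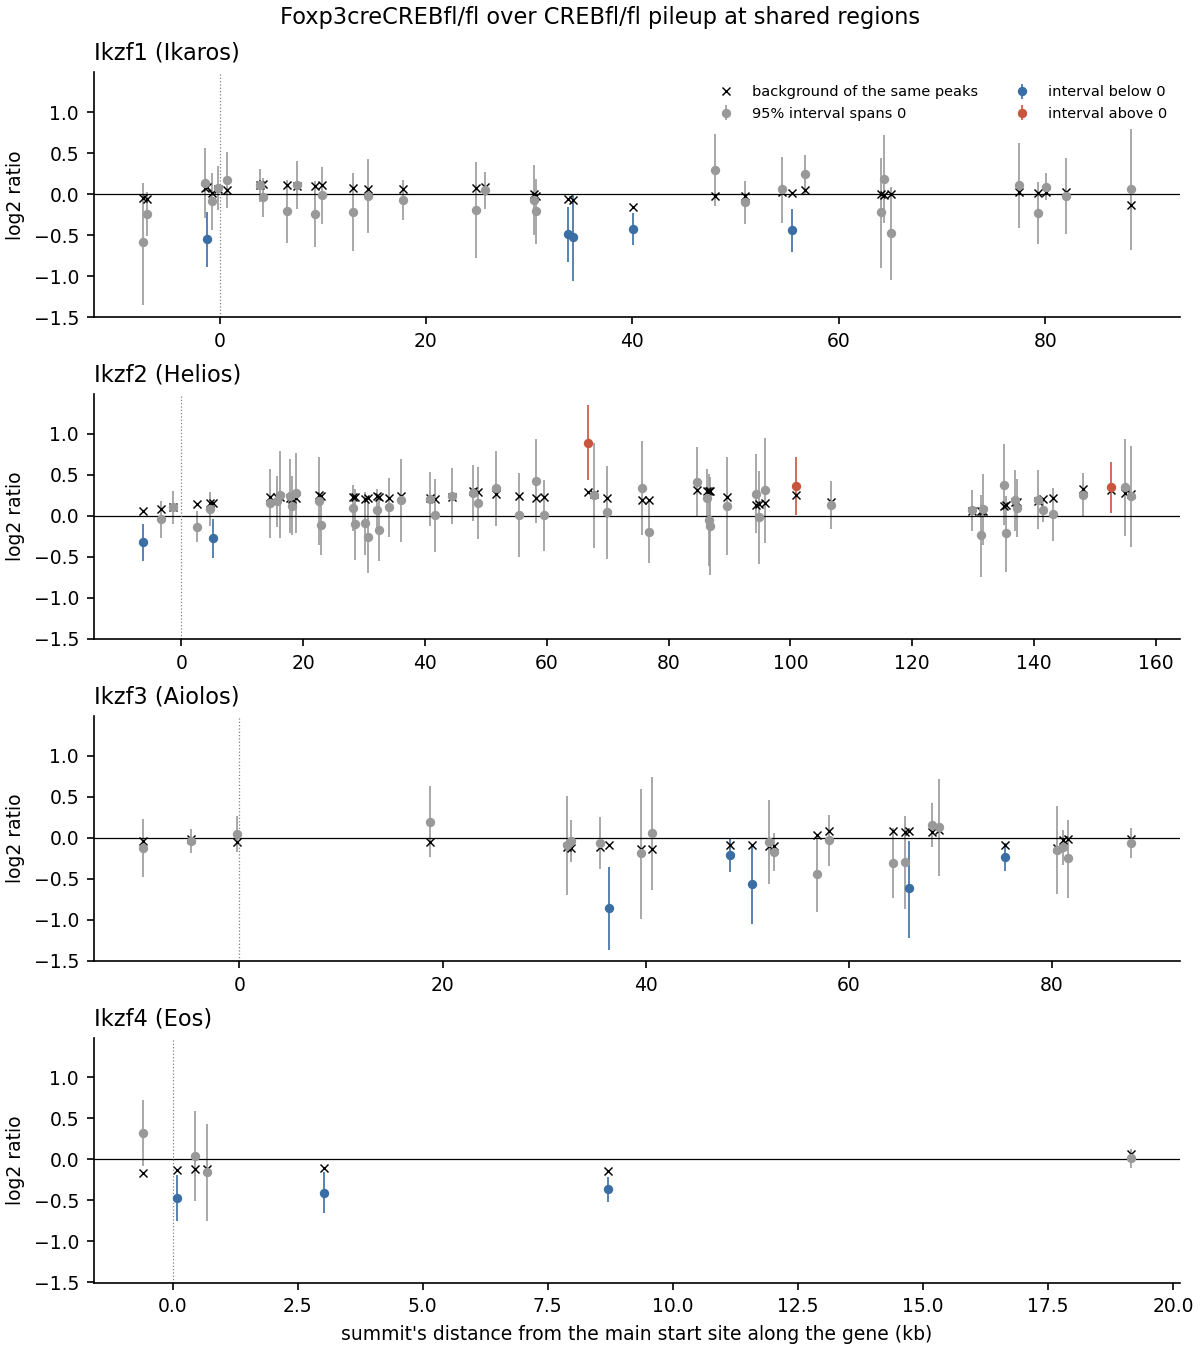
Log2 ratio of Foxp3creCREBfl/fl to CREBfl/fl pileup at each shared region, relative to the median of all shared regions (vertical axis), against distance from the main start site in kb, with exact 95% counting intervals. Blue and red mark intervals below and above 0, and crosses give the log2 ratio of the background of the same peaks. The crosses of Ikzf2 all lie above 0, and 3 of 7 Ikzf4 regions have the whole interval below it.

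Ikzf1 encodes Ikaros and spans chr11:11685003-11772926 on the plus strand (ENSMUSG00000018654.17). It had 44 CREBfl/fl regions, at rank 82 of all protein-coding genes, and 45 Foxp3creCREBfl/fl regions, at rank 57. Of its 47 regions 39 lay in introns. The tallest was in intron 7 at chr11:11766119-11766493, with pileups of 710 and 506 (0.09, -0.08 to 0.26). Its summit stood beside a pair of RUNX words, in capitals below on the reverse strand as ACCACA.
Ikzf1 intron 7, chr11:11766237-11766387, plus strand: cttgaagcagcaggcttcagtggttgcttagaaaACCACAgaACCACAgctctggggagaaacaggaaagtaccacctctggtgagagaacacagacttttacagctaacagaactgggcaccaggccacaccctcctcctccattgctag

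At the promoters of Ikaros the picture was mixed: the outermost start site was lower, and the others did not differ beyond counting error. The region over the start site of the longest protein-coding transcript, chr11:11685593-11686412, had 282 and 198 (0.07, -0.20 to 0.34). The region at the second RefSeq promoter, chr11:11689888-11690217, had 470 and 338 (0.11, -0.10 to 0.31). The first RefSeq promoter (GRCm38.p6, chr11:11685675-11685974) is printed because it lies within the start-site region and holds 1 half-site, CGTCA, and 2 GC boxes (CCGCCC or its complement), in capitals.
Ikzf1 promoter, plus strand: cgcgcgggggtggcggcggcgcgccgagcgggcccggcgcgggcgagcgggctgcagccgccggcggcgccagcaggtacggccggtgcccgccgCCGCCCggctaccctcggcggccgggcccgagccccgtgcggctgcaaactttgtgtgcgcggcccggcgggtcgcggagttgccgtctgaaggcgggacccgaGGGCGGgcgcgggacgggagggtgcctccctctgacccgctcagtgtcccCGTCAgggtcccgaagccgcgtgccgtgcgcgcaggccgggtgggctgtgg
Of all 32851 RefSeq promoters of this length, 20.8% hold the half-site, so its presence is common.

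In Ikzf1, 5 of 36 shared regions were lower (13.9%, 6.08 to 28.7) and 0 higher, and the interval includes the 7.88% of all shared regions. The lowest ratio among them, -0.55 (-0.89 to -0.21), was at the outermost start site, chr11:11684875-11685206, with 238 and 109, where the neighbouring gene Gm11999 also has a start site within 1 kb. The others were in intron 3. They had 99 and 46 at chr11:11720432-11720558 (-0.53, -1.06 to -0.01), 229 and 109 at chr11:11719804-11720104 (-0.49, -0.83 to -0.16), and 384 and 189 at chr11:11741616-11742352 (-0.44, -0.70 to -0.19). The tallest of them, chr11:11725491-11726676, had 641 and 320 (-0.42, -0.62 to -0.23) and was the second tallest region of the gene. The regions with 99 and 46 and with 641 and 320 hold the half-sites shown first. The median of the gene was -0.07, and 0.08 without the centring.

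The 6 CREBfl/fl-only regions of Ikzf1 had pileups of 146, 77, 61, 58, 45 and 40, and the 5 Foxp3creCREBfl/fl-only regions had 104, 89, 63, 61 and 38. Except for 1 downstream of the gene, all of them were in introns. The tallest of each kind stood in intron 1 at chr11:11691484-11691617 and chr11:11692537-11692629. The respective shares were 13.6% of 44 (6.40 to 26.7) and 11.1% of 45 (4.84 to 23.5), against 16.4% and 6.61% of all regions.

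Ikzf3 encodes Aiolos and spans chr11:98464902-98546031 on the minus strand (ENSMUSG00000018168.8). It had 30 CREBfl/fl regions and 28 Foxp3creCREBfl/fl regions. Its tallest region, upstream at chr11:98549958-98551489, had 1024 and 665 (-0.04, -0.19 to 0.10) and lies within 1 kb of a start site of the neighbouring gene Zpbp2. The start-site region of Ikzf3-201, chr11:98545672-98546152, had 424 and 292 (0.04, -0.18 to 0.26). Neither differed beyond counting error.

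Among the 26 shared Aiolos regions 5 were lower (19.2%, 8.51 to 37.9, against 7.88% of all shared regions) and 0 higher (5.47% of all), and 21 had a ratio below 0. The lowest ratio of the whole family, -0.85 (-1.37 to -0.36), was in intron 3 at chr11:98509328-98509546, where the pileup was 127 in CREBfl/fl and 47 in Foxp3creCREBfl/fl. This is the region with the half-site near its summit. The next were in intron 6 at chr11:98479561-98479940, with 85 and 37 (-0.62, -1.22 to -0.05), and in intron 3 at chr11:98495285-98495397, with 117 and 53 (-0.56, -1.06 to -0.08). The taller ones among the lower regions had smaller differences. Intron 7 at chr11:98469819-98471051 had 824 and 468 (-0.24, -0.40 to -0.07), and intron 3 at chr11:98497297-98497819 had 577 and 332 (-0.22, -0.42 to -0.02). The median was -0.12, and 0.03 without the centring, where 1 region was lower and 1 higher.

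Group-only regions were 13.3% of the 30 CREBfl/fl regions of Ikzf3 (5.31 to 29.7), against 16.4% of all. They were 0% of its 28 Foxp3creCREBfl/fl regions (0 to 12.1), against 6.61% of all. Both intervals include the share of all regions. The 4 group-only regions were thus all CREBfl/fl-only, and they lay in introns. Their pileups were 88 at chr11:98544955-98545195, 57 at chr11:98541155-98541269, 53 at chr11:98513789-98513920 and 28 at chr11:98533050-98533141. The smallest is the one beside the full CRE. In Foxp3creCREBfl/fl it would have had 18.7 tags at the median ratio, where the lowest pileup called on such a background was 18, so its absence there was at the limit of the list. The region with 53 tags would have had 35.4, above the lowest of 26. For those with 88 and 57 tags, 58.8 and 38.1 would have been expected, and the lowest pileup among 1849 Foxp3creCREBfl/fl peaks with a background like that of the start-site region was 76. That region is the nearest one, but 4431 bp away for the region with 57 tags, whose own background of 25.6 was below the 80.9 of the start-site region in CREBfl/fl. Over the family, 19 of the 25 CREBfl/fl-only and 10 of the 10 Foxp3creCREBfl/fl-only regions would have been at or above the lowest pileup called in the other list. That lowest pileup belongs to a single peak, so it is a lenient bound. Most CREBfl/fl-only regions of the family would have been below the 10th percentile of pileups called on a similar background. Most Foxp3creCREBfl/fl-only regions would have been above it. These counts were not made over all single-list regions, and the lists differ in depth, so they cannot be read as particular to the family.

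Ikzf5 encodes Pegasus and spans chr7:131388652-131410521 on the minus strand (ENSMUSG00000040167.16). Its only region covered the start site, chr7:131409934-131410892, where 950 tags were found in CREBfl/fl and 649 in Foxp3creCREBfl/fl (0.03, -0.12 to 0.18). No distal region was called in its window in either list. The start of Acadsb, an acyl-CoA dehydrogenase gene, lies within 1 kb, so that both genes share the region. The RefSeq promoter (GRCm38.p6, chr7:131410429-131410728) lies within it and is shown as the contrast to the distal sites of the other members, with GC boxes, a half-site TGACG and a STAT word in capitals.
Ikzf5 promoter, minus strand: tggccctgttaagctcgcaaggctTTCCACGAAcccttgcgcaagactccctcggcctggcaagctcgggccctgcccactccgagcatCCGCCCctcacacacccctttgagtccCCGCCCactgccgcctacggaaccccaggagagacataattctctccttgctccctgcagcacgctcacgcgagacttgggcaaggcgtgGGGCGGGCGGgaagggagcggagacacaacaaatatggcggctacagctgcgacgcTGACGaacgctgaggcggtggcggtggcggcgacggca
Of the same promoters, 35.7% hold a GC box and 8.30% the STAT word.

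**Figure D3:**
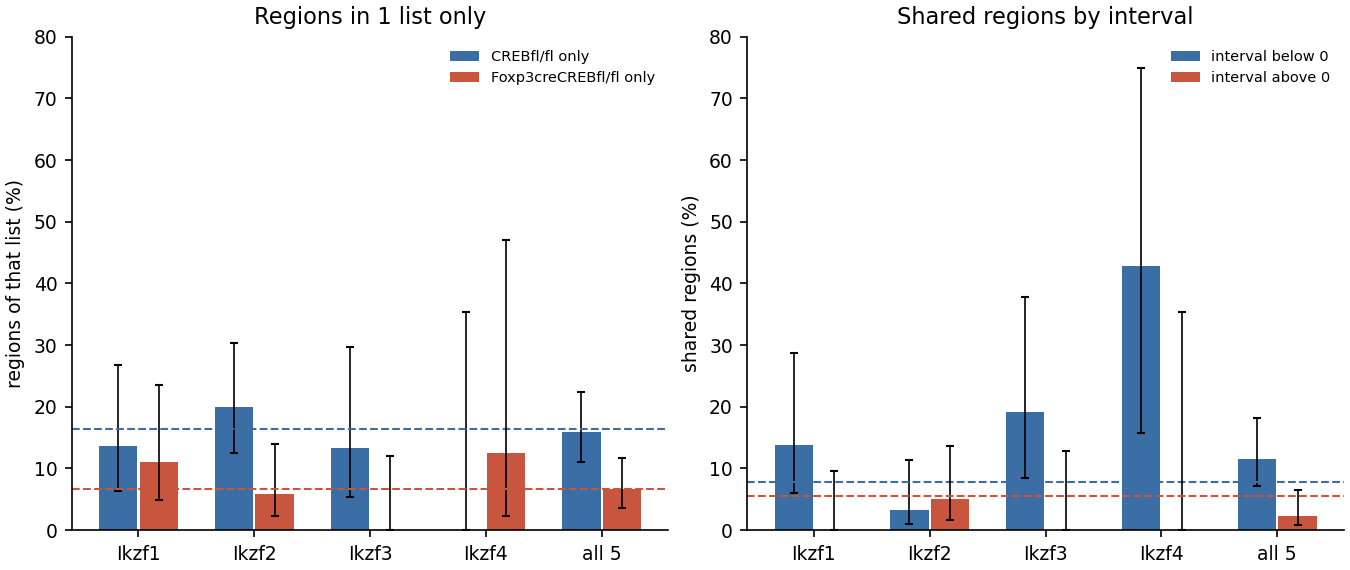
Left, regions of 1 list only as a percentage of that list's regions of each gene. Right, shared regions with the whole interval below or above 0 as a percentage of the shared regions. Error bars are Wilson 95% intervals and dashed lines the same shares over all regions. Ikzf5, with its 1 shared region, is counted in "all 5" only. The lines for single-list regions, at 16.4% and 6.61%, lie inside every error bar of the left panel, although single bars range from 0 to 20%, and the right-hand bar of Ikzf4 below 0, at 42.9%, is the tallest.

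Over the whole family the order of the medians was Ikzf2 (0.13), Ikzf5 (0.03, its single region), Ikzf1 (-0.07), Ikzf3 (-0.12) and Ikzf4 (-0.15). The quartiles of neighbours in this order overlap, with 0.00 to 0.25 in Ikzf2, -0.23 to 0.08 in Ikzf1, -0.25 to -0.04 in Ikzf3 and -0.38 to 0.03 in Ikzf4. The broad background had the same order of Ikzf2 (0.22), Ikzf5 (0.05), Ikzf1 (0.02), Ikzf3 (-0.05) and Ikzf4 (-0.12). That background contains the peaks, so it is not a separate reading of the order. With each pileup set against the background of its own peak, the order of the medians was another one. It was Ikzf5 (-0.01), Ikzf4 (-0.04), Ikzf2 (-0.05), Ikzf3 (-0.06) and Ikzf1 (-0.09).

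Half-sites of the CRE were no more frequent in the family than elsewhere. They stood near the summit of 25 of 165 regions (15.2%, 10.5 to 21.4), against 15.7% of all regions. Among the shared family regions with a half-site, 5 of 19 were lower (26.3%, 11.8 to 48.8) and 0 higher, and the median ratio was -0.15. Without one, 10 of 111 were lower (9.01%, 4.97 to 15.8) and 3 higher, and the median was 0.02. These family intervals overlap. Over all shared regions, 15.2% of the 13457 with a half-site were lower, against 6.46% of the 68549 without. The half-site did not go with lower pileup at every member: the shared Ikzf2 regions that held it, in exon 8, introns 3 and 5 and downstream, had ratios between -0.24 and 0.35, none of which was lower or higher.

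**Figure D4:**
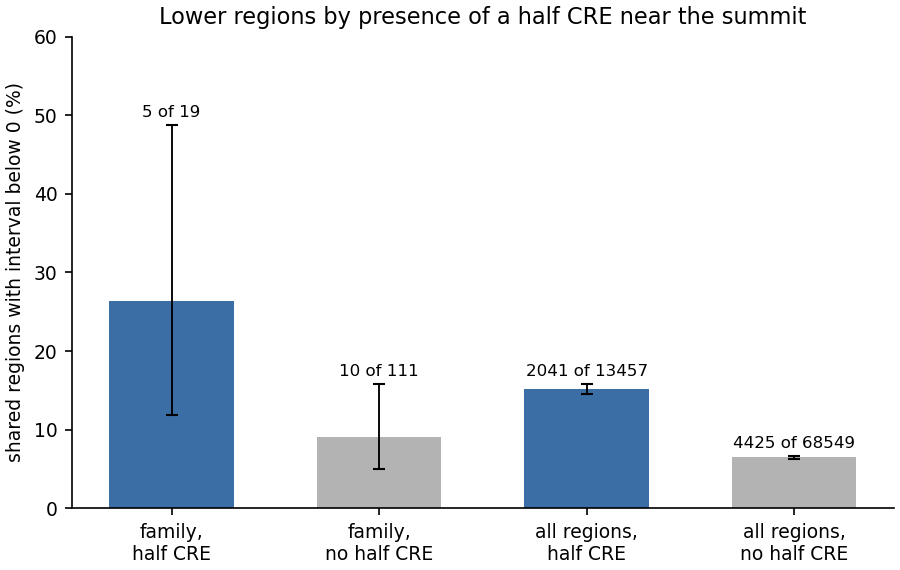
Share of shared regions with the whole interval below 0, by whether the half-site TGACG stands on either strand within 150 bp of the summit, for the Ikaros family and for all shared regions. Error bars are Wilson 95% intervals and the numbers above give counts. The share is 26.3% with and 9.01% without the half-site in the family, and 15.2% and 6.46% over all regions.

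The other words searched, on both strands of the same stretch, were counted in the same way, and no difference was tested. The Ikaros core TGGGAA stood in 28.5% of its regions (22.1 to 35.8), against 22.4% of all, and the GATA word AGATAA in 20.6% (15.1 to 27.4), against 14.6%. Less frequent were the GC box, in 6.67% (3.76 to 11.5) against 17.3%, the RUNX word, in 20.6% against 27.6%, and the ETS word CCGGAAGT, in 0 regions (0 to 2.28) against 1.73%. The AP-1 word TGANTCA stood in 10.9% against 13.2%, the STAT word in 12.1% against 9.75%, and the forkhead word TGTTTAC in 5.45% against 4.44%. The full CRE contains the half-site on both strands. The GC content around the summits had a median of 42.9% in the family and 48.2% over all regions. A match is a description of the letters and not of binding.

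The protein partners of the family were close to the median of all regions. For 16 genes of corepressor complexes that Ikaros proteins recruit, such as the remodeller gene Chd4 and the deacetylase genes Hdac1 and Hdac2, 114 shared regions had a median ratio of 0.01. Of these 9 were lower, 5 were higher and 0 passed 2-fold and 5 counting SDs, where 7.88%, 5.47% and 0.201% of all shared regions did. Single-list regions were 14.2% of their CREBfl/fl regions, against 16.4% of all, and 3.73% of their Foxp3creCREBfl/fl regions, against 6.61%. The genes with the largest medians were Ctbp1 (0.20 over 2 regions), Mta2 (-0.14 over 2), Mta3 (0.12 over 12) and Chd4 (0.11 over 9). Ctbp1 encodes a corepressor that Eos binds, and its start-site region had a ratio of 0.29 (0.10 to 0.48). The 5 genes of the cereblon ubiquitin ligase (Crbn, Ddb1, Cul4a, Cul4b and Rbx1), through which immunomodulatory drugs degrade Ikaros and Aiolos, had 23 shared regions with a median of 0.04, and 0 of them were lower or higher.

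By the number of regions and their summed pileup over background in both lists, the protein-coding genes most like Ikzf2 were Wwox, Prkca and Atxn1, at Euclidean distances of 0.0978, 0.103 and 0.109 over 4 standardised quantities. Those most like Ikzf4 were Virma, Eef2k and Kif22, at 0.0136, 0.0217 and 0.0221. Likeness here is in amount of accessible chromatin in 2 lists.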

How the data were processed

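ATAC-seq was performed in splenic Tregs, and 1 peak list per group was analysed. Per the labels and the study's methods, the authors used Trim Galore on reads of 75 bp and Bowtie2 for alignment. Duplicate fragments and poorly aligned reads were taken out with SAMtools, and MACS2 made the peaks. Not given in the sources used here were tool versions, how libraries of a group were combined, and which sort gate the ATAC-seq cells came from. The deposited columns hold a score, a fold over the background of each peak, −log10 p and −log10 q values and a summit position. The labels name the build mm9, but the positions were those of GRCm38: 57.8% and 57.2% of 54050 annotated start sites had a region within 1 kb in the CREBfl/fl and Foxp3creCREBfl/fl lists, against 13.9% and 13.0% after a shift of 100 kb.

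The pileup and background of each peak were solved from its deposited fold and −log10 p value. The methods state that no local background was used, whereas 32.7% and 29.8% of the peaks were at the genome background and the others above it. Shared regions overlap by at least 1 bp, and 76 of them without a recovered pileup, 0 of them in the family, were left out. In tests on simulated data, 100% of 20000 pileups were recovered, and 95.6% of the ratios lay inside their 95% interval. The lists had median pileups of 90 and 66 tags. Intervals cover counting error only, and tags carry no molecular identifiers. Analyses used Python 3.11.15 with numpy 2.4.6, pandas 2.3.3, scipy 1.17.1, pysam 0.24.0 and matplotlib 3.10.9, and genes were those of GENCODE. The family, the gene lists and the words searched were chosen with earlier results of these data known. Regions were named by a fixed rule: those at the main start sites, the 2 tallest of each gene, up to 3 of the highest and lowest ratios whose interval excludes 0, all single-list regions of a gene with at most 6 of a kind and otherwise the 3 tallest, and any with the full CRE. The remaining regions with an interval that excludes 0, and the smaller ones beside the Ikzf4 start site, were named after their values were seen. Alternatives were another window, overlap, q threshold, pairing of summits, centring, background, fold and interval.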

Additional observations from a re-analysis of the deposited data

How the results depend on the processing

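With 1 peak list per group, the intervals hold no spread between mice and no library could be left out. No paired analysis was possible because the lists carry no replicate numbers. Without centring on the median of all regions, the family median was 0.16, 8 regions were lower and 23 higher, and the medians of Ikzf1 (0.08), Ikzf3 (0.03) and Ikzf4 (0.00) were no longer below 0. Over the background of each peak, the family median was -0.0605 and that of Ikzf2 -0.05. Higher regions numbered 5 with 50 kb around each gene, 1 with centring on the regions within 5 Mb and 1 with a 99% interval. With a reciprocal overlap of 50%, 28 regions were Foxp3creCREBfl/fl-only. The shares of all regions were not counted in these alternative settings, so the counts are not results about the family. The region upstream of Ikzf2 with 455 and 243 tags was then paired with a smaller Foxp3creCREBfl/fl peak of 152 tags. The taller of its 2 Foxp3creCREBfl/fl peaks no longer counted as overlapping. Paired in this way, that 1 region passed 2-fold and 5 counting SDs (-1.01). Likewise 1 passed with 50 kb, beyond Ikzf3, and 2 passed 1.5-fold and 3 counting SDs, the Ikzf2 region with 75 and 93 tags and the Ikzf3 region with 127 and 47. Of the 18 lower or higher regions, 7 spanned 0 without centring, 6 over the background of each peak, 7 with a 99% interval and 2 with centring within 5 Mb. With a reciprocal overlap, a stricter q or the closest summits, 0 of the 17 or 18 regions measured did, and in these 7 settings 0 changed sign. Small regions are limited by depth: 99 and 46 tags gave an interval from -1.06 to -0.01.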
